A study of Mus musculus with 6 samples.

Results

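The genes of glycolysis, glucose uptake and pyruvate fate were examined in the whole retina, in WT mice and in Wfs1-KO mice. They were taken from the deposited gene table by symbol, as a fixed list of 34 glucose transporters, glycolytic enzymes other than enolases, lactate and pyruvate dehydrogenases, mitochondrial pyruvate carriers and regulators of these steps. All 34 were among the 55376 genes of the table, and all 34 were among the 18547 genes that passed the filter on low counts. The retinas came from 3 WT and 3 Wfs1-/- mice aged 240 days and were sequenced as bulk RNA. The Wfs1-KO mice carried a targeted exon deletion in every cell, so that a difference cannot be assigned to a cell type. The sample labels give a cross of C57 and 129 as strain for both genotypes, while the study's methods give a C57BL/6J background.

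Glycolysis splits glucose into pyruvate in the cytosol. Pyruvate is then either reduced to lactate by lactate dehydrogenase or carried into mitochondria and oxidised by pyruvate dehydrogenase. The adult retina is known for aerobic glycolysis, in which photoreceptors turn much of their glucose into lactate although oxygen is present. Lactate made by one retinal cell type can be taken up by another, and wolframin, the endoplasmic reticulum protein encoded by Wfs1, is absent in the mutant mice. The comparison addresses whether transcripts of the enzymes that make and use pyruvate differed between genotypes.

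Total counts were between 17916885 and 101334381 per retina, and the 34 genes together took between 1.70% and 2.24% of them. Levels are given as CPM, the usual depth-scaled counts, with library sizes adjusted by TMM, and as CPM per kb of exon where genes are compared with each other. Wfs1 had 64.9, 61.3 and 69.9 CPM in WT replicates 1, 2 and 3, and 9.62, 0.898 and 11.5 CPM in Wfs1-KO replicates 1, 2 and 3, so that each mutant library was below each WT library. The fitted log2 change of Wfs1 was -3.15, with standard error 0.77 and an adjusted p of 0.979 in edgeR's quasi-likelihood test, 2.84e-05 in that test without Wfs1-KO replicate 2, and 0.00403 with DESeq2. The 13 rod markers used to check the tissue were all tested and summed to between 68990 and 90040 CPM. The Wfs1-KO replicate 2 library stood apart, with a mean correlation of 0.909 to the other 5 across genes, against 0.958 to 0.966 for each of the others. The summed level of 7 red blood cell markers was 479.7 CPM in that library and between 12.3 and 41.3 CPM in the other 5. For 12 microglia and macrophage markers the sum was 358 CPM against 47.8 to 73.4, and for 13 pigment epithelium markers 812 CPM against 299.5 to 459. Genotype differences that turn on that library are therefore also given without it.

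None of the 34 genes passed an adjusted p of 0.05 in edgeR's quasi-likelihood test, with adjusted p-values between 0.979 and 0.991. Of all genes tested, 2 passed, or 0.0108%. At an unadjusted p under 0.05 the count was also 0 of 34, where 2.81% of all tested genes lay, 2.24% higher and 0.566% lower in Wfs1-KO. It was 0 of 34 with DESeq2 and with limma-voom too, and DESeq2 called 0.28% of all genes at an adjusted p under 0.05. The median log2 fold change of the 34 genes, Wfs1-KO against WT, was -0.03, with 15 values above 0 and 19 below, or 55.9%. Over all tested genes the median was 0.02, and 47.2% of values were below 0. The genotypes did not overlap for 2 of the 34 genes, or 5.88%, Ldha and Tigar, both lower in Wfs1-KO, against 8.96% of all tested genes. Of all tested genes, 5.01% were higher and 3.95% lower in every mutant retina. For 25 of the 34 genes the 95% confidence interval of the fold change lay within 2-fold in either direction. The standard error (SE) of the log2 fold change (log2FC) was between 0.16 and 0.45 with a median of 0.21. Without Wfs1-KO replicate 2, 26 of the 34 values were below 0, or 76.5%, while 50.1% of all tested genes were, the median was -0.08, and 15 of the 34 values changed sign. The median log2 deviation of the 34 genes from their genotype mean had an SD of 0.105 over the 6 retinas. It was largest in WT replicate 1, at 0.135.

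**Figure D1:**
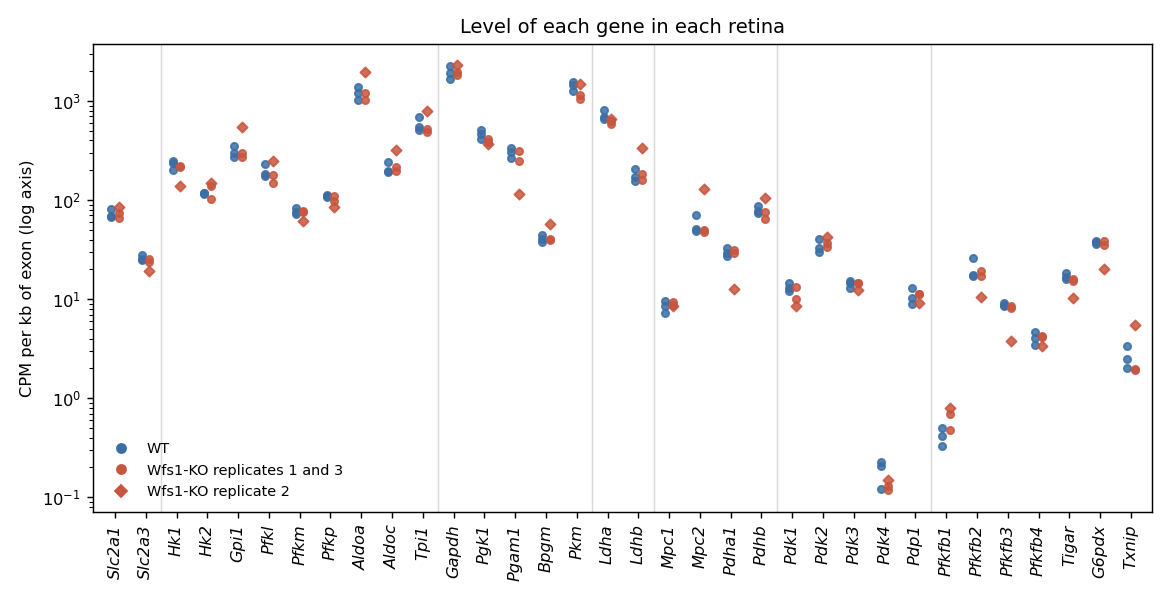
Level of each of the 34 genes in each retina, in CPM per kb of exon on a log axis, with WT retinas left and Wfs1-KO retinas right of each gene's position and vertical lines between functional groups. Gapdh lay highest, with a WT mean of 1960, and Pdk4 lowest, with 0.185, and for most genes the 6 points overlapped.

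The promoters of 3 genes are shown because Ldha and Tigar were the genes without overlap between genotypes and Txnip is the textbook glucose-responsive gene among the 34. Such lack of overlap was no more frequent among the 34 genes, at 5.88%, than among all tested genes, at 8.96%. Each run is the 250 bases before the transcription start, 5′ to 3′ on the gene's strand, from RefSeq on build GRCm38.p6, with capitals marking the motif matches that are described next. The Ldha run lies at chr7:46845554-46845803 on the plus strand, the Tigar run at chr6:127109553-127109802 on the minus strand, and the Txnip run at chr3:96557707-96557956 on the plus strand.
Ldha: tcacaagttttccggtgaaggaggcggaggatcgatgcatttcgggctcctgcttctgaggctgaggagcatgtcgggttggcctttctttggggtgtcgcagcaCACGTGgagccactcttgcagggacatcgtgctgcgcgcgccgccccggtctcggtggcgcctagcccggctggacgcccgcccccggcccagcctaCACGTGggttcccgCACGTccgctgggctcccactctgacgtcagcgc
Tigar: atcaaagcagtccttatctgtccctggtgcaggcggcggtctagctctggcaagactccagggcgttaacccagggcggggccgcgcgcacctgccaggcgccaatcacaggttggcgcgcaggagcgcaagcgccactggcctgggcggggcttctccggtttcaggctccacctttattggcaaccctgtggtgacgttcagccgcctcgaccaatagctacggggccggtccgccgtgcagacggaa
Txnip: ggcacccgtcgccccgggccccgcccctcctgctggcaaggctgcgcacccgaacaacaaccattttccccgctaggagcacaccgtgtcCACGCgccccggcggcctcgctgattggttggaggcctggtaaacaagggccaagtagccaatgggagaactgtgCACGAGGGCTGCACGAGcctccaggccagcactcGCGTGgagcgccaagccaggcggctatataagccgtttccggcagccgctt
The motifs searched on both strands were the hypoxia-inducible factor cores ACGTG and GCGTG, the E-box CACGTG, which contains the first of these, the core TAATCC of the photoreceptor factor CRX and the carbohydrate response element, which is a pair of E-box half-sites. The printed Ldha run held ACGTG and CACGTG, and the printed Tigar run held none of the 5 motifs. The printed Txnip run held GCGTG and the carbohydrate response element. Counting all its starts, Ldha also had GCGTG and TAATCC, which the printed run lacks. RefSeq promoters were found for 32 of the 34 genes, 50 promoters in all, since some genes have several starts. ACGTG was in 34% of these 50 and in 16.6% of all 32851 promoters, and GCGTG in 52% and 28.2%. The E-box was in 10% and 6.02%, TAATCC in 10% and 6.25%, and the carbohydrate response element in 2% and 0.28%, the 1 member being Txnip. Several starts of a gene were counted separately, and the promoters compared were not matched for base composition. These are matches of letters and show no binding.

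By level per kb in WT, the genes spanned about 10620-fold. Gapdh (glyceraldehyde-3-phosphate dehydrogenase) had 1960 ± 282 CPM per kb, Pkm (pyruvate kinase of muscle and brain type) 1433 ± 146, Aldoa (aldolase A) 1204 ± 180, Ldha (lactate dehydrogenase A) 722 ± 84.1 and Tpi1 (triose phosphate isomerase) 581 ± 93.2 (SD, n = 3 each). These 5 genes held between 59.7% and 65.0% of the CPM of the 34 genes in every retina. At the low end, Txnip had 2.62 ± 0.67 CPM per kb, Pfkfb1 0.414 ± 0.083 and Pdk4 0.185 ± 0.056 (SD, n = 3 each), with Pdk4 at 14 counts in the shallowest retina. In this order, 20 of the 33 pairs of neighbours had WT ranges that overlapped, Pkm and Aldoa among them, and Ldha and Tpi1. The ranges of Gapdh and Pkm did not overlap. Within each WT retina, Gapdh was above Pkm, Pkm above Aldoa, and Ldha above Tpi1.

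Glucose enters retinal cells through facilitative transporters. Slc2a1, which encodes GLUT1 of photoreceptors, glia and the blood-retina barrier, had 263, 226 and 221 CPM in WT and 243, 278 and 217 CPM in Wfs1-KO replicates 1, 2 and 3. The genotypes overlapped, and the log2FC was 0.06 (SE 0.18, 95% confidence interval -0.36 to 0.47). Slc2a3, the neuronal transporter GLUT3, had 103 ± 6.15 CPM in WT and 89.9 ± 12.6 CPM in Wfs1-KO (SD, n = 3 each), a log2FC of -0.19 (SE 0.17). Per kb, Slc2a1 made up 73.5% ± 2.46 of the pair in WT and 76.7% ± 4.63 in Wfs1-KO (SD, n = 3 each).

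Hexokinase traps glucose as glucose 6-phosphate, and the retina uses both Hk1, the general isozyme, and Hk2, which is enriched in photoreceptors. Hk1 had 1194, 976 and 1141 CPM in WT and 1064, 667 and 1036 CPM in Wfs1-KO replicates 1, 2 and 3. Hk2 had 642, 666 and 657 CPM in WT, with an SD of 12.2 CPM, and 783, 834 and 575 CPM in Wfs1-KO. Wfs1-KO replicates 1 and 2 were thus above all WT retinas for Hk2 and replicate 3 below all of them, and the log2FC was 0.16 (SE 0.19), or 0.05 (SE 0.14) without replicate 2. The ratio of Hk2 to Hk1 per exon length was 0.465, 0.590 and 0.498 in WT and 0.636, 1.08 and 0.480 in Wfs1-KO. Its difference of 0.42 on the log2 scale gave p = 0.3 in a two-sided exact permutation test, in which 0.1 is the smallest p that 3 against 3 retinas allow, and it was 0.10 without Wfs1-KO replicate 2.

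Gpi1, the isomerase that follows hexokinase, had 1011, 781 and 856 CPM in WT and 857, 1561 and 784 CPM in Wfs1-KO. Only the library of Wfs1-KO replicate 2 exceeded the WT range, and the log2FC of 0.28 (SE 0.29) became -0.11 (SE 0.14) without it. Phosphofructokinase, the committed step, is built from liver, muscle and platelet subunits. In WT, Pfkl made up 51.0% ± 2.73 of the 3 transcripts per kb, Pfkp 28.9% ± 2.35 and Pfkm 20.1% ± 0.56 (SD, n = 3 each). In Wfs1-KO these shares were 52.9% ± 8.87, 27.2% ± 5.03 and 19.9% ± 3.89 (SD, n = 3 each). Their log2FC values were -0.03, -0.17 and -0.11 in the order Pfkl, Pfkp and Pfkm (SE 0.24, 0.17 and 0.17). Without Wfs1-KO replicate 2 they were -0.25, -0.09 and -0.02 (SE 0.16, 0.12 and 0.13). Aldoc, the brain-type aldolase, took 14.9% ± 0.80 of the aldolase transcripts in WT and 15.1% ± 1.13 in Wfs1-KO (SD, n = 3 each). Aldoa itself was at 3562, 2643 and 3062 CPM in WT and at 3104, 5002 and 2599 CPM in Wfs1-KO. Its CPM, like those of Aldoc and Tpi1, was highest in Wfs1-KO replicate 2.

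**Figure D2:**
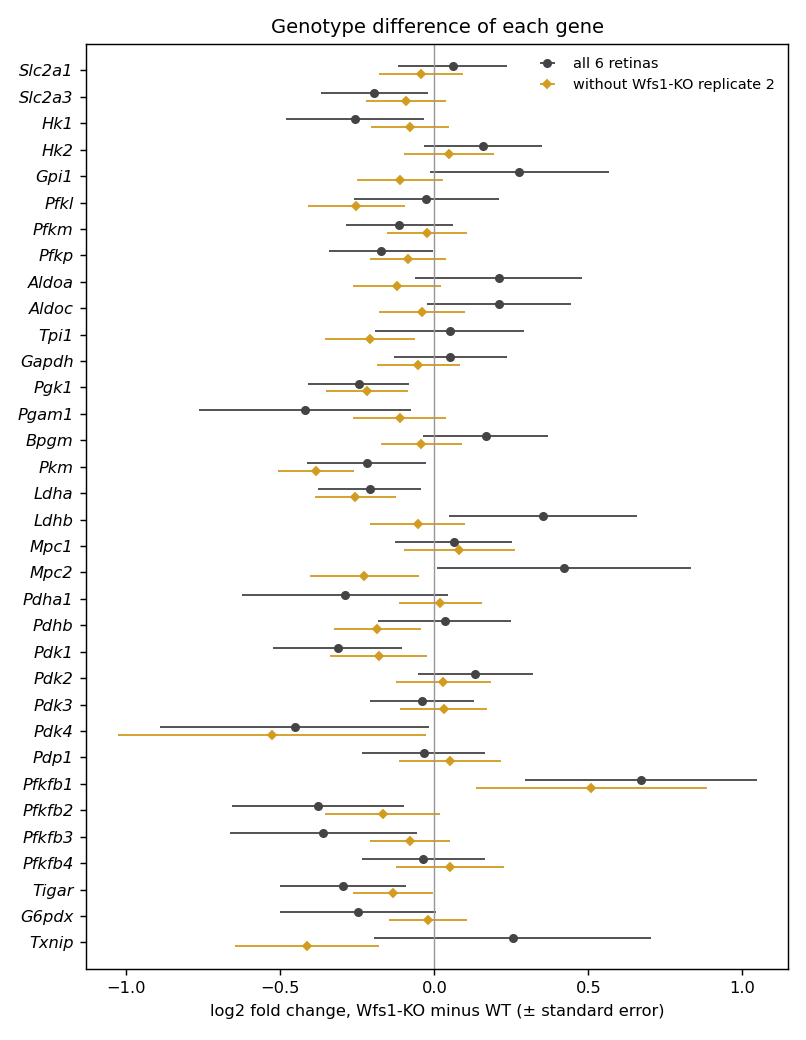
Log2 fold change of each of the 34 genes, Wfs1-KO minus WT, with its standard error as bars, from edgeR's test on all 6 retinas (grey circles) and without Wfs1-KO replicate 2 (yellow diamonds). With all 6 retinas the values ran from -0.45 for Pdk4 to 0.67 for Pfkfb1, and Gpi1, Aldoa, Ldhb, Mpc2 and Txnip were among those that moved from above to below 0 without that replicate.

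In the payoff phase, Gapdh, often used as a reference transcript, had 3366, 2524 and 2901 CPM in WT and 2955, 3433 and 2721 CPM in Wfs1-KO. Its log2FC was 0.05 (SE 0.18), and the 95% confidence interval of the fold was 0.77 to 1.40. Pgk1, the first enzyme that makes ATP, had 932, 850 and 756 CPM in WT and 760, 680 and 701 CPM in Wfs1-KO. The genotypes overlapped only between WT replicate 3 and Wfs1-KO replicate 1, and the log2FC was -0.25 (SE 0.16), with -0.22 (SE 0.13) without Wfs1-KO replicate 2. Pgam1, the mutase of the next step, had 592, 542 and 473 CPM in WT and 555, 207 and 439 CPM in Wfs1-KO, so its log2FC of -0.42 (SE 0.34) was set by replicate 2 and was -0.11 without it. Bpgm makes 2,3-bisphosphoglycerate and is best known from red blood cells. It had 97.7, 84.4 and 90.2 CPM in WT and 87.1, 129 and 89.9 CPM in Wfs1-KO, with the one high value in the library that also had the high red blood cell markers, and the part of those cells in it was not tested.

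Pkm, which makes pyruvate, lies on chromosome 9 from 59656368 to 59679375. It had 4064, 3316 and 3790 CPM in WT and 3020, 3861 and 2701 CPM in Wfs1-KO. Replicates 1 and 3 of Wfs1-KO were below every WT retina and replicate 2 was within the WT range. The log2FC was -0.22 (SE 0.19, unadjusted p = 0.291, edgeR's test), and -0.15 (SE 0.23) without WT replicate 1. Without Wfs1-KO replicate 2 it was -0.39 (SE 0.12, unadjusted p = 0.00993, adjusted p = 0.673, edgeR's test). Without that replicate Pkm alone among the 34 had an unadjusted p below 0.05. Of all tested genes 5.19% had one, 2.39% lower and 2.8% higher in Wfs1-KO, and 0.125% passed the adjusted threshold. The counts do not separate the M1 and M2 splice forms of Pkm.

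At the lactate step, the genotypes did not overlap for Ldha, as for 8.96% of all tested genes. Ldha, whose subunit favours lactate formation, lies on chromosome 7 from 46845839 to 46855627 and had 1551, 1296 and 1259 CPM in WT and 1184, 1248 and 1116 CPM in Wfs1-KO. All mutant values were below all WT values, and Wfs1-KO replicate 2 was close to WT replicate 3. The log2FC was -0.21 (SE 0.17, unadjusted p = 0.244, adjusted p = 0.979, edgeR's test), and -0.26 (SE 0.13, unadjusted p = 0.0759) without Wfs1-KO replicate 2. Without WT replicate 1, the highest WT retina for Ldha, it was -0.11 (SE 0.19). Ldhb, the subunit that favours lactate use, had 271, 203 and 225 CPM in WT and 208, 441 and 242 CPM in Wfs1-KO, a log2FC of 0.35 (SE 0.31) that became -0.05 (SE 0.15) without replicate 2. The ratio of Ldha to Ldhb per exon length was 3.94, 4.41 and 3.86 in WT and 3.91, 1.95 and 3.18 in Wfs1-KO. The ratio of Wfs1-KO replicate 1 lay within the WT range and the other 2 below it, and the difference of -0.49 on the log2 scale had p = 0.2 in the two-sided exact permutation test and was -0.20 without replicate 2.

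Rod markers were lower in the same retinas. The 13 rod markers summed to 90040, 82700 and 89610 CPM in WT and to 80010, 68990 and 80290 CPM in Wfs1-KO, so that here too no mutant retina reached a WT retina, and none of the 13 was at 0 in every retina. By gene, 3 of the 13 had a log2FC above 0 and 10 below, with 0 at an unadjusted p under 0.05 in edgeR's test. Without Wfs1-KO replicate 2, 13 of the 13 were below 0 and 4 were lower at an unadjusted p under 0.05, where 2.39% of all tested genes were. The Müller glia markers, 10 in all, summed to between 5628 and 5839 CPM in WT and to 4939, 4276 and 5329 CPM in Wfs1-KO. By gene, 3 of the 10 had a log2FC above 0 and 7 below. Other cell types went the other way. The 9 bipolar cell markers summed to 1512, 1573 and 1545 CPM in WT and to 1833, 1732 and 1708 CPM in Wfs1-KO. Endothelium and pericyte markers were also higher in every mutant retina. Sums of cone, amacrine and horizontal, and ganglion cell markers overlapped between genotypes. Per 1000 CPM of summed rod markers, Ldha was at 17.2, 15.7 and 14.0 CPM in WT and at 14.8, 18.1 and 13.9 CPM in Wfs1-KO replicates 1, 2 and 3. On this scale the genotypes overlapped for Ldha, with replicate 2 above every WT retina and replicate 3 below every one. Pkm was at 45.1, 40.1 and 42.3 CPM in WT and at 37.8, 56.0 and 33.7 CPM in Wfs1-KO, so that replicates 1 and 3 stayed below every WT retina and the equal means of 42.5 CPM rested on replicate 2. On the same scale Hk2 was at 7.51 ± 0.486 CPM in WT and 9.68 ± 2.47 CPM in Wfs1-KO, and Gapdh at 33.4 ± 3.55 and 40.2 ± 8.43 CPM (SD, n = 3 each), both highest in replicate 2. The part of the rod markers in the Ldha values was not tested further. In bulk tissue, fewer cells of a type and less RNA per cell cannot be told apart.

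**Figure D3:**
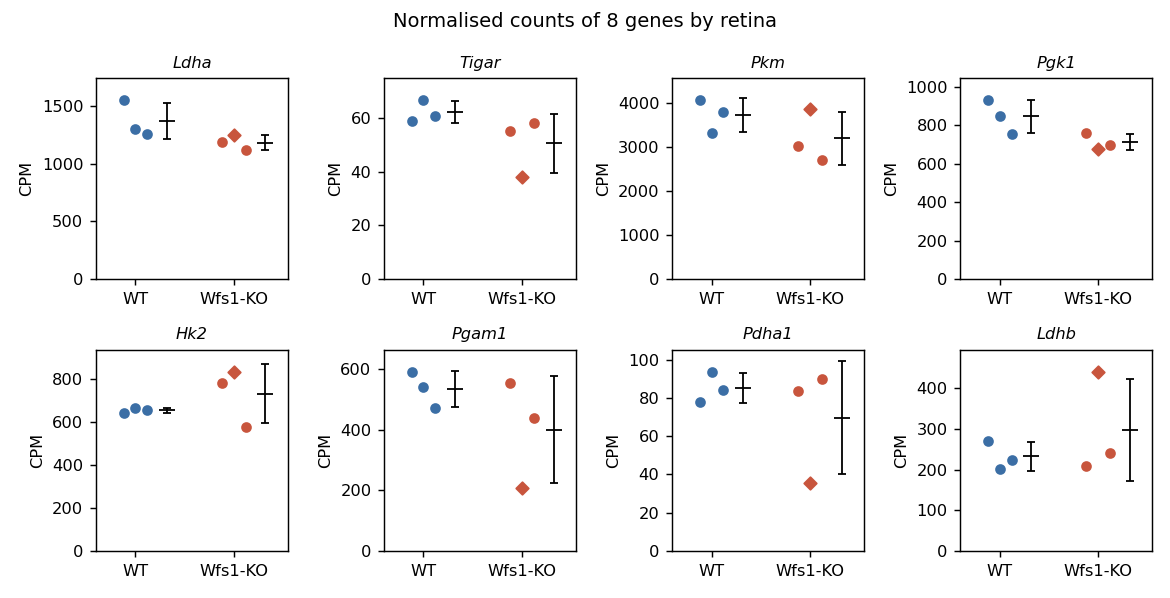
CPM of 8 genes in each retina (circles, with the Wfs1-KO replicate 2 library as diamonds), with the mean and SD of each genotype beside the points and axes that start at 0. Ldha and Tigar had no overlap between genotypes, the 3 WT values of Hk2 lay within 642 to 666, and Wfs1-KO replicate 2 was far below the others for Pgam1 and Pdha1 and far above them for Ldhb.

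Pyruvate reaches the mitochondrial matrix through a carrier of 2 proteins. Mpc1 had 14.3, 10.6 and 12.6 CPM in WT and 13.6, 12.6 and 12.9 CPM in Wfs1-KO, a log2FC of 0.06 (SE 0.19). Its partner Mpc2 had 72.5, 52.1 and 49.6 CPM in WT and 51.0, 133 and 48.7 CPM in Wfs1-KO. The log2FC of Mpc2 was 0.42 (SE 0.41) and -0.23 (SE 0.18) without replicate 2. The row of the named copy Mpc1-ps held up to 33.8% as many counts as Mpc1 itself, so the division of reads between them is uncertain. Pyruvate dehydrogenase then commits pyruvate to oxidation. Pdha1, its X-linked catalytic alpha subunit, had 77.9, 93.7 and 84.0 CPM in WT and 83.6, 35.7 and 89.7 CPM in Wfs1-KO. Pdhb, the beta subunit, had 133, 118 and 112 CPM in WT and 115, 158 and 98.4 CPM in Wfs1-KO. The ratio of Pdha1 to Pdhb was therefore 0.120 in Wfs1-KO replicate 2 and between 0.312 and 0.485 in the other 5 retinas. The difference of this ratio between genotypes was -0.41 on the log2 scale (two-sided exact permutation test, p = 0.8), and 0.21 without that library.

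The pyruvate dehydrogenase kinases switch the complex off and the phosphatase Pdp1 switches it on. Per kb, Pdk2 made up 55.1% ± 4.74 of the kinase transcripts in WT, Pdk3 23.1% ± 1.95, Pdk1 21.5% ± 2.74 and Pdk4 0.303% ± 0.111 (SD, n = 3 each). In Wfs1-KO the shares of Pdk2 and Pdk1 were 60.3% ± 5.75 and 17.1% ± 3.58 (SD, n = 3 each). Pdk1, a target of hypoxia signaling, had 66.6, 76.3 and 63.4 CPM in WT and 69.3, 44.1 and 52.5 CPM in Wfs1-KO. Replicate 1 of Wfs1-KO was within the WT range, and the log2FC was -0.31 (SE 0.21), or -0.18 (SE 0.16) without replicate 2. The ratio of Pdk3 to Pdk1 was 1.14, 1.04 and 1.07 in WT and 1.10, 1.45 and 1.45 in Wfs1-KO (difference 0.29 on the log2 scale, two-sided exact permutation test, p = 0.2). Pdk4, the starvation-induced kinase, stayed under 1 CPM in every retina, at 0.421, 0.714 and 0.794 CPM in WT and 0.456, 0.520 and 0.408 CPM in Wfs1-KO. Pdp1 had 48.6 ± 9.25 CPM in WT and 47.5 ± 5.45 CPM in Wfs1-KO (SD, n = 3 each).

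**Figure D4:**
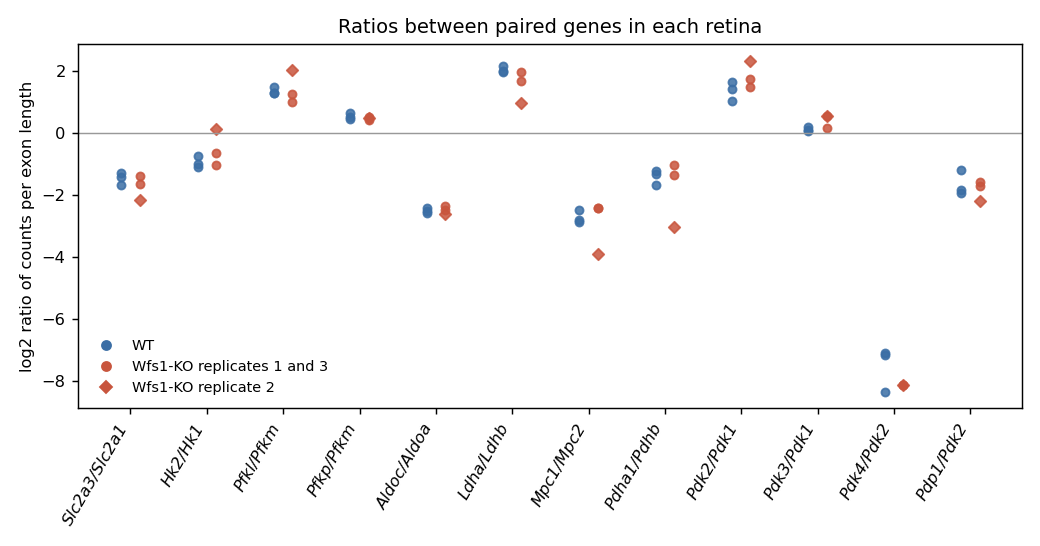
Log2 ratios of counts per exon length between paired genes in each retina, with WT left and Wfs1-KO right of each position. None of the 12 ratios separated the genotypes, and the Wfs1-KO replicate 2 library, drawn as a diamond, lay apart for Mpc1/Mpc2, Pdha1/Pdhb, Ldha/Ldhb and Hk2/Hk1.

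Across all 12 ratios compared, the smallest adjusted p was 0.800 after Benjamini-Hochberg adjustment of the exact permutation p-values. A ratio within a library does not depend on depth or scaling, and none of the 12 separated the genotypes.

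The bifunctional enzymes of the PFKFB family set fructose 2,6-bisphosphate, the activator of phosphofructokinase, and Tigar lowers it and directs glucose towards the pentose phosphate branch. Tigar lies on chromosome 6 from 127085116 to 127109550. It had 58.9, 66.7 and 60.6 CPM in WT and 55.3, 37.9 and 58.3 CPM in Wfs1-KO, so that the highest mutant value was just under the lowest WT value. The log2FC was -0.30 (SE 0.21, adjusted p = 0.979, edgeR's test), and -0.13 (SE 0.13) without replicate 2. Pfkfb3, the isozyme induced by hypoxia and inflammation, had 50.5, 47.5 and 47.8 CPM in WT and 44.9, 21.1 and 47.5 CPM in Wfs1-KO, a log2FC of -0.36 (SE 0.30) that became -0.08 without that library. Pfkfb2 made up 60.1% ± 6.10 of the family per kb in WT and 57.7% ± 1.06 in Wfs1-KO (SD, n = 3 each), but 27.8% of its exon bases overlap other genes of the table, Yod1 among them, and the kit did not mark strand, so its level is uncertain. Genes on the opposite strand also overlap Txnip (21.4% of exon bases), Pdha1 (21.2%), Pfkp (17.4%), Mpc1 (13.0%) and Gpi1 (12.3%), and a gene on the same strand overlaps Pkm (12.9%). Pfkfb1 had the highest fold change of the 34 genes, at a low level, with 1.01, 0.672 and 0.851 CPM in WT and 1.43, 1.63 and 0.976 CPM in Wfs1-KO (log2FC 0.67, SE 0.38, unadjusted p = 0.116, edgeR's test). Pfkfb4 had 14.1 ± 2.01 CPM in WT and 13.8 ± 1.69 CPM in Wfs1-KO (SD, n = 3 each).

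G6pdx opens the pentose phosphate branch and supplies NADPH. It had 96.3, 99.3 and 102 CPM in WT and 92.6, 54.0 and 103 CPM in Wfs1-KO, a log2FC of -0.25 (SE 0.25) and of -0.02 (SE 0.13) without replicate 2. Txnip, which curbs glucose uptake and is induced by glucose, had 5.69, 7.10 and 9.42 CPM in WT and 5.56, 15.4 and 5.47 CPM in Wfs1-KO. Wfs1-KO replicates 1 and 3 were below every WT retina and replicate 2 above every one, and the log2FC of 0.25 (SE 0.45) became -0.41 (SE 0.23, unadjusted p = 0.107) without replicate 2. Arrdc4, its relative with the same kind of regulation, had 6.87 ± 0.29 CPM in WT and 7.07 ± 0.59 CPM in Wfs1-KO (SD, n = 3 each) and overlapped between genotypes.

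**Figure D5:**
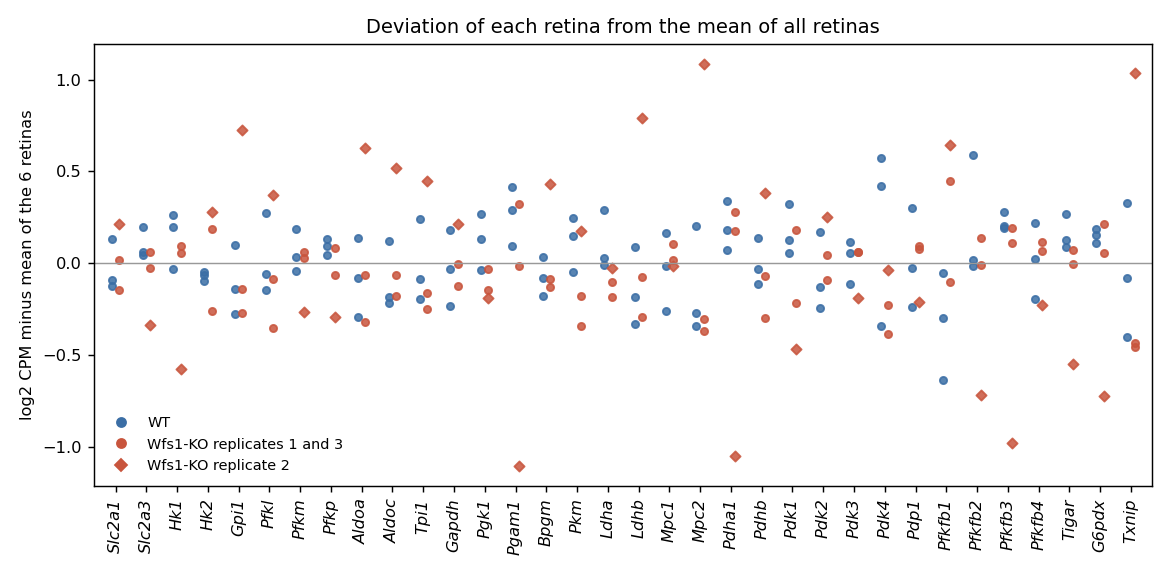
Deviation of log2 CPM from the mean of the 6 retinas for each of the 34 genes, with WT left and Wfs1-KO right of each position. Wfs1-KO replicate 2, drawn as diamonds, was above the other 5 retinas for 15 genes and below them for 14. Across all tested genes it was above them for 38.3% and below them for 37.0%.

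The Wfs1-KO replicate 2 retina lay outside the range of the other 5 for 29 of the 34 genes, or 85.3%, and for 75.3% of all tested genes. Each of the other 5 retinas lay outside the remaining ones for between 0 and 15 of the 34. For all tested genes these shares were between 17.5% and 33.6%. In that retina, 6 of the 9 genes of upper glycolysis were above the others (Hk2, Gpi1, Pfkl, Aldoa, Aldoc and Tpi1) and 3 below (Hk1, Pfkm and Pfkp). Of the 7 regulators of fructose 2,6-bisphosphate and the pentose branch, 5 were below. Across all tested genes, 38.3% were above the other 5 retinas in that library and 37.0% below. Relative to the mean of the other 5, Mpc2 was at 2.46-fold, Txnip at 2.37-fold and Ldhb at 1.93-fold, while Pgam1 was at 0.400-fold, Pdha1 at 0.417-fold and Pfkfb3 at 0.443-fold. Across the 34 genes this deviation had a Spearman rho of -0.47 with exon length and 0.30 with transcript GC content, and across 14854 tested genes with a protein-coding transcript -0.51 and 0.16. These correlations are across genes of the same 6 libraries, and genes are not independent replicates.

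WT replicate 1 was the highest WT retina for 23 of the 34 genes, and for 36.0% of all tested genes. Gapdh, Pkm, Aldoa and Ldha were among the 23. WT replicate 3 had 4 counts of Xist and 1137 of Ddx3y, while the other 5 retinas had at least 10583 and at most 2, so the sexes were not balanced. For the 5 X-linked genes, Pgk1, Pdha1, Pdk3, Pfkfb1 and G6pdx, the log2FC values without WT replicate 3 were -0.34, -0.31, -0.12, 0.65 and -0.25, in that order. With Wfs1-KO replicate 2 left out instead, they were -0.22, 0.02, 0.03, 0.51 and -0.02.

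Of the wider pathway, 101 further genes were listed, of which 89 were tested, and none passed the adjusted threshold in edgeR's test. At an unadjusted p under 0.05 there were 2, Adpgk lower and H6pd higher, against 2.81% of all tested genes. The genotypes did not overlap for 8 of the 89, against 8.96% of all tested genes, and neither share was far from the background. The median log2FC was 0.00, with 45 values above 0 and 44 below. Within the pyruvate dehydrogenase complex, Dlat, Dld and Pdhx, its other core subunits, had log2FC values of -0.09, -0.11 and -0.09, and 0 of the 9 tested genes of that list had an unadjusted p under 0.05. The 14 tested hypoxia-inducible genes outside glycolysis had a median of -0.12, with 3 values above 0 and 11 below. Without Wfs1-KO replicate 2 the median was -0.03, with 5 above and 9 below. Among them Vegfa had 135, 120 and 131 CPM in WT and 126, 69.3 and 114 CPM in Wfs1-KO, with the low value in replicate 2. The study itself, profiling candidate genes separately, reports Vegfa as upregulated in the mutant retinas.

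Adpgk encodes an ADP-dependent glucokinase of the endoplasmic reticulum, which phosphorylates glucose without spending ATP. It had 23.0, 25.0 and 26.3 CPM in WT and 14.4, 11.6 and 12.4 CPM in Wfs1-KO. All mutant retinas were well below all WT retinas. The log2FC was -0.95 (SE 0.18, unadjusted p = 0.000918, adjusted p = 0.812, edgeR's test) and -0.89 (SE 0.16, adjusted p = 0.103) without Wfs1-KO replicate 2. DESeq2, run over the 6 retinas, gave Adpgk an adjusted p of 0.000477, and it was the 1 gene of the wider list past the threshold there. Adpgk lies on chromosome 9 from 59291558 to 59316199, 340169 bases before Pkm. Of the 21 genes with an unadjusted p below 0.001 in edgeR's test, 12 lay on chromosome 9, Adpgk among them. They spanned 42329622 to 72462025, a stretch whose ends were set by these genes themselves. Pkm lies within it but, with an unadjusted p of 0.291 in that test, was not among the 12. The share of all tested genes that lie on chromosome 9, or in this stretch, was not computed. H6pd, the hexose-6-phosphate dehydrogenase of the endoplasmic reticulum lumen, had 5.04, 5.42 and 5.90 CPM in WT and 8.57, 8.01 and 7.15 CPM in Wfs1-KO. Every mutant retina was above every WT retina, with a log2FC of 0.54 (SE 0.21, unadjusted p = 0.0334, adjusted p = 0.979, edgeR's test), and its DESeq2 adjusted p was 0.796.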

How the data were processed

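Retinal RNA of 3 WT and 3 Wfs1-KO mice was sequenced from TruSeq RNA libraries, a kit that does not mark strand, so reads of overlapping genes on opposite strands cannot be told apart. The authors trimmed reads with Trimmomatic 0.39, aligned them to mm10 with STAR 2.5.3a and counted them per gene with featureCounts 1.6.4, as the submitters' processing notes name the tools; the study's methods give other versions of the first 2. The authors deposited whole-number counts per gene, not normalized, with the exon length of each gene in bases. In that table, 2 library columns matched no listed sample and were not used. From the counts, TMM-scaled CPM were computed, and genes that passed edgeR's expression filter (18547 of 55376) were tested with edgeR 4.0.16 by its quasi-likelihood test with Benjamini-Hochberg adjustment, in R 4.3.3, over all 6 retinas. DESeq2 1.42.0 and limma 3.58.1 were alternatives, with other scalings and filters, a replicate block and each retina left out. Log2 ratios between 12 gene pairs, with 0.5 added to each count, were compared by two-sided exact permutation tests in scipy 1.17.1.

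A floor of 3 counts corresponded to between 0.0291 and 0.170 CPM, and covers counting error only. The samples are separate mice, so p-values measure the spread between mice. No pair of libraries agreed within sampling noise. The test was checked on simulated data with known changes. There, with all 6 retinas, it missed nearly all of the smaller changes, which were of 1 on the log2 scale. A gene short of the threshold may therefore still differ. Without Wfs1-KO replicate 2 its share of false calls was above the nominal one. No simulated library was made to stand apart as Wfs1-KO replicate 2 did.

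The 34 genes, the wider lists, the 12 ratios and the rule on named genes (all 34, Wfs1, and genes of the wider lists with an unadjusted p under 0.05 and no overlap between genotypes) were chosen with earlier results of these data known. The printed promoters and motifs, the genes of the CPM plot, the levels per rod marker, the comparison of Wfs1-KO replicate 2 with the other retinas, the stretch of chromosome 9, and Arrdc4, Vegfa, Dlat, Dld and Pdhx as examples were chosen after their values were seen.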

Additional observations from a re-analysis of the deposited data

How the results depend on the processing

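The count of the 34 genes past the adjusted threshold was 0 under every alternative run. The count of all genes past it was 2, as it was with limma-voom, the RLE and upper-quartile scalings and a minimum of 10 counts. It was 52 with DESeq2, 94 with DESeq2 without Wfs1-KO replicate 2, 9 without the low-count filter, 1 with the replicate block and between 0 and 24 when each retina was left out, the highest without Wfs1-KO replicate 2. At an unadjusted p under 0.05, the 34 genes gave 0, and 1 without Wfs1-KO replicate 2 in edgeR's test and in DESeq2. The Wfs1 log2 fold change was -3.17 with DESeq2 and -2.64 with DESeq2 without Wfs1-KO replicate 2, and passed the threshold in both. With each retina left out it was between -3.62 and -2.64. The cause of these differences was not tested.

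Same-numbered retinas came from different mice, and the correlations of their deviations were -0.21, -0.11 and 0.06. Those of differently numbered retinas lay between -0.20 and 0.24. No pairing by number showed, but so few retinas cannot settle whether same-numbered ones shared a batch. With the replicate block all 34 fold changes kept their direction. Of the 12 ratios, 0 separated the genotypes with all retinas, between 0 and 3 when each retina was left out, and 1 differed with the same sign in all pairs under the replicate block.

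Without the low-count filter Pdhb was at -0.0034. With each retina left out, the log2 fold changes whose sign turned ranged as follows: Pfkl -0.25 to 0.12, Pfkfb4 -0.15 to 0.071, Gapdh -0.052 to 0.16, Mpc1 -0.045 to 0.17, Pdk3 -0.12 to 0.0302, Pdp1 -0.17 to 0.12, Slc2a1 -0.043 to 0.14, Tpi1 -0.21 to 0.18, Pdhb -0.19 to 0.17, Gpi1 -0.11 to 0.45, Aldoa -0.12 to 0.39, Aldoc -0.0402 to 0.34, Bpgm -0.042 to 0.27, Ldhb -0.054 to 0.55, Mpc2 -0.23 to 0.66, Pdha1 -0.51 to 0.019, Txnip -0.41 to 0.50. With DESeq2 without Wfs1-KO replicate 2, the signs that turned were those of Slc2a1 (-0.044), Gpi1 (-0.11), Aldoa (-0.12), Aldoc (-0.041), Tpi1 (-0.21), Gapdh (-0.052), Bpgm (-0.043), Ldhb (-0.054), Mpc2 (-0.23), Pdha1 (0.018), Pdhb (-0.19), Pdk3 (0.029), Pdp1 (0.0501), Pfkfb4 (0.049) and Txnip (-0.41). The log2 ratio differences whose sign turned when a retina was left out were Pdp1/Pdk2 -0.30 to 0.073, Aldoc/Aldoa -0.043 to 0.083, Pfkl/Pfkm -0.23 to 0.28, Mpc1/Mpc2 -0.46 to 0.29, Pdha1/Pdhb -0.80 to 0.21.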
